A study of Homo sapiens with 6 samples.

Results

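The genes described here encode the proteins that copy DNA: the origin recognition and licensing factors, the MCM helicase and its activators, the replicative polymerases, the sliding clamp and its loader, the single-strand binding protein RPA, the enzymes that join new fragments and supply nucleotides, and a fork protection pair. They are 52 genes, listed by symbol for their role, and all 52 were found among the 29744 genes of the table. LNCaP, a human prostate cancer line that responds to androgen, was grown in RPMI-1640 with serum and treated for 4 h with 250 nM CDKI-73, an inhibitor of the transcription elongation kinase CDK9, or with the vehicle DMSO. There were 3 biological replicates of each group, a single dose, time and cell line, and no group without DMSO. Expression was measured by stranded single-end sequencing of polyA+ RNA and is given as CPM, a gene's share of all the reads counted in a sample, scaled to the same total in every sample.

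As background, each origin of replication is bound by the origin recognition complex (ORC), to which CDC6 and CDT1 bring the ring-shaped helicase MCM2 to MCM7, a step called licensing. In S phase the DBF4-dependent kinase (DDK) and cyclin-dependent kinases turn the loaded ring into an active helicase by adding CDC45 and the GINS complex. Polymerase alpha-primase then starts each strand, polymerases delta and epsilon extend it while held on DNA by the PCNA clamp, and many of the genes involved are classical targets of the E2F transcription factors in proliferating cells.

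Promoter sequences were available for 46 of the 52 genes in RefSeq (GRCh38.p14), and the 250 bases before each annotated start were searched on both strands for 3 sequences that E2F factors are known to bind, TTTCCCGC, TTTGGCGC and TTTCGCGC. At least 1 of them was present for 17 of the 46 genes (37.0%), against 463 of 9487 tested genes with a window (4.88%), 777 of 27305 genes (2.85%) and 2.32% of all 35116 windows. The windows of 4 genes are printed because they set large falls beside a small one and overlap no exon of GENCODE 44. *CDC6* (chr17:40287629-40287878, plus strand) and *CDT1* (chr16:88803539-88803788, plus strand) encode the licensing partners and fell by a similar amount, *MCM10* (chr10:13161308-13161557, plus strand) fell further, and *MCM6* (chr2:135876444-135876693, minus strand) changed little. Sequences run 5′ to 3′ and end at the base before the annotated start, and capitals mark exact matches to the E2F sequences searched for.
CDC6: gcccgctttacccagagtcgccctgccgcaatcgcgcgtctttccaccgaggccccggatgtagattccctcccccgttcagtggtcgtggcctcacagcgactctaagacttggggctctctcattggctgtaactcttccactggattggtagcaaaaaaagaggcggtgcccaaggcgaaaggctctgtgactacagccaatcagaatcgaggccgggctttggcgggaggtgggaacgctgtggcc
CDT1: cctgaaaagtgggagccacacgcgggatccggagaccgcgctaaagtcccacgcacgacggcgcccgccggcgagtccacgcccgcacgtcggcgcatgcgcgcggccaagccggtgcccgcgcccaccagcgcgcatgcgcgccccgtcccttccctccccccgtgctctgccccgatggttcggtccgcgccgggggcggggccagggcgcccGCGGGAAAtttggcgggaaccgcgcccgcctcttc
MCM10: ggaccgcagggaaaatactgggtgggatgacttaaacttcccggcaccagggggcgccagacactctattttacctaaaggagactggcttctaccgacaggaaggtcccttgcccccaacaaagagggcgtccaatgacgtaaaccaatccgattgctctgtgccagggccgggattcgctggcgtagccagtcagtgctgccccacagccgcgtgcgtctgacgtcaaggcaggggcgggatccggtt
MCM6: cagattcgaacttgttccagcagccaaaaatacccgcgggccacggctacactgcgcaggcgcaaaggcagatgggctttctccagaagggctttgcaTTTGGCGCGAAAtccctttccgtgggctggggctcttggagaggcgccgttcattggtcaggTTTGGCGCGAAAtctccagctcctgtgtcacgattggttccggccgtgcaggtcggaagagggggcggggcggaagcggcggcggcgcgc
The *MCM6* window holds 4 matches in 2 places, in each of which TTTGGCGC overlaps GCGCGAAA, the reverse complement of TTTCGCGC. The *CDT1* window holds 1 match, and those of *CDC6* and *MCM10* hold none of the 3 exact sequences. Other forms of E2F sequence were not searched for. The *CDC6* and *CDT1* windows both hold TTTGGCGG, which differs from TTTGGCGC only in its last base. Among the genes that fell by at least 2-fold, 3 of the 10 with a window had a match, and among the others 14 of 36 did. The CCAAT box (CCAAT on either strand) stood in 28 of the 46 windows (60.9%), against 42.2% of tested genes and 32.0% of all windows, and it was present 3 times for *CDC6*, 2 times for *MCM10* and *MCM6* and not for *CDT1*. A match describes the letters of a window and is not a measured binding site.

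With CDKI-73, 35 of the 52 genes (67.3%) were lower than with DMSO at an adjusted p of 0.05 or less (limma on log2(CPM + 0.1), Benjamini-Hochberg over 13373 tested genes), where 48.2% of all tested genes were lower. Another 6 (11.5%) were higher, against 24.2% of all tested genes, and 11 did not pass. A fall of at least 2-fold was found for 11 (21.2%), close to the 22.3% of all tested genes, and a rise of at least 2-fold for 0, against 1.11%. The 11 were *DBF4*, *GINS3*, *DTL*, *POLD3*, *MCM10*, *CDC6*, *CDT1*, *ORC5*, *GMNN*, *ORC1* and *RFC4*. All 3 values with CDKI-73 lay below all 3 with DMSO for 38 genes (73.1%, against 50.0% of tested genes) and above them for 8 (15.4%, against 25.9%), and the groups overlapped for 6. The median log2 fold change of the 52 was −0.36, against −0.18 for all tested genes, with a range of −3.33 to 0.59. In bulk RNA, fewer cells that express these genes and less of their RNA per cell cannot be told apart.

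These counts depended on how the samples are scaled, since a CPM value is relative to everything else counted in the sample. Rescaling by a trimmed mean of ratios (TMM), by the median of gene ratios, by the upper quartile or by *GAPDH*, *HPRT1* and *ACTB* moved the median log2 fold change of all genes by 0.19, 0.17, 0.48 and −0.40. The numbers of lower and higher replication genes became 27 and 15 with TMM, where 39.6% and 38.0% of all tested genes were lower and higher. They were 27 and 14 with the median of ratios (all genes, 40.4% and 36.6%), 17 and 28 with the upper quartile (29.5% and 54.7%) and 49 and 1 with the reference genes (73.9% and 2.95%). The numbers at least 2-fold lower became 8, 9, 5 and 18, against 18.7%, 19.0%, 14% and 32.7% of all tested genes. The genes found lower under all 5 scalings numbered 17: *ORC1*, *ORC2*, *ORC5*, *CDC6*, *CDT1*, *GMNN*, *DTL*, *DBF4*, *GINS1*, *GINS3*, *MCM10*, *PRIM1*, *POLD3*, *RFC1*, *RFC4*, *FEN1* and *TIPIN*. That is also the number lower with the upper quartile alone, where 29.5% of all tested genes were lower. Only *POLD2* was higher under all 5, and for the other 34 the direction or the call varied. The 2-fold fall held under every scaling for *DTL*, *DBF4*, *GINS3*, *MCM10* and *POLD3*. These are the 5 that were at least 2-fold lower with the upper quartile, where 14% of all tested genes were.

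**Figure D1:**
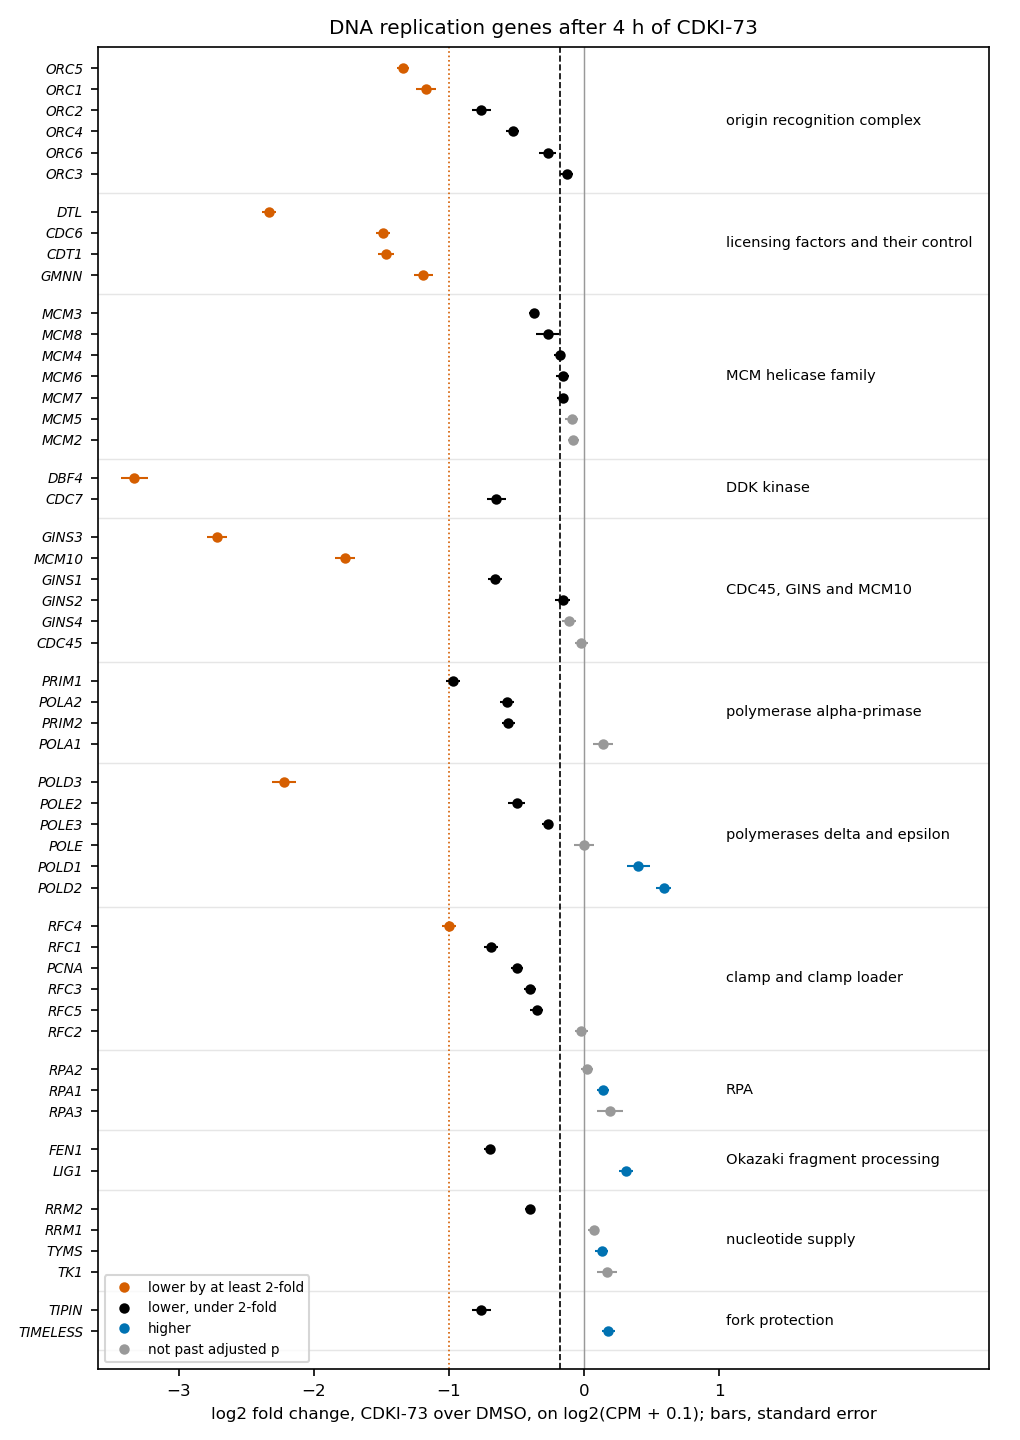
Log2 fold change (CDKI-73 over DMSO, on log2(CPM + 0.1), x axis) of each of the 52 genes, ordered by role, with bars for the standard error. Orange points are at least 2-fold lower, black points lower by less, blue points higher and grey points not past the adjusted p. The dashed line marks the median of all tested genes (−0.18) and the dotted line a 2-fold fall. Points near the dashed line, among them the MCM2 to MCM7 genes, take the opposite sign under upper quartile scaling.

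**Figure D2:**
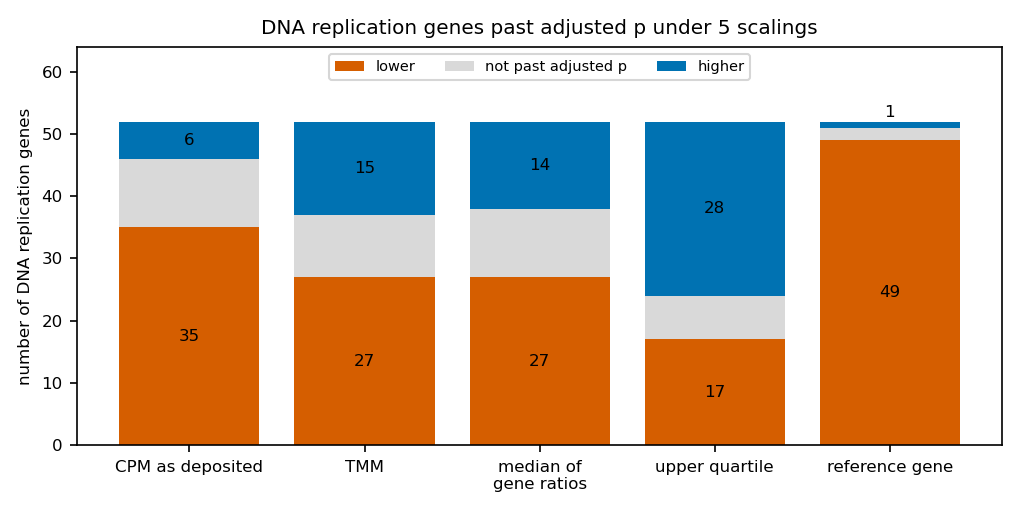
Number of the 52 genes lower, higher or not past an adjusted p of 0.05 (limma) with CPM as deposited and under 4 other scalings. The number lower ranges from 17 with the upper quartile to 49 with the reference genes.

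In what follows, values are given for replicates 1, 2 and 3 in that order, ± after a log2 fold change is the standard error of limma, every adjusted p is from limma over all tested genes, and gene positions are those of GENCODE 44 on hg38. All 6 genes of the origin recognition complex, which marks the sites where replication can start, were lower, 2 of them by at least 2-fold. Of all tested genes, 48.2% were lower and 22.3% at least 2-fold lower. *ORC3* and *ORC6* did not pass with TMM or the median of ratios and were higher under upper quartile scaling. *ORC5* (chr7:104126341-104208047), an AAA+ subunit of the complex, was at 98.9, 100.5 and 99.4 CPM with DMSO and 40.2, 38.7 and 39.3 CPM with CDKI-73. Treated samples lay far below every control, at 39.5% of the DMSO mean (log2 fold change −1.34 ± 0.042, adjusted p = 6.1e-08). *ORC1* (chr1:52372829-52404423), the largest subunit and the ATPase whose protein level varies over the cell cycle, was at 28.4, 27.7 and 28.6 CPM with DMSO and 12.7, 13.5 and 11.3 CPM with CDKI-73 (log2 fold change −1.17 ± 0.074, adjusted p = 1.8e-06). *ORC3* was the least changed, at 38.5, 40.8 and 39.6 CPM with DMSO and 36.7, 37.1 and 34.7 CPM with CDKI-73 (log2 fold change −0.13 ± 0.051, adjusted p = 0.044), and it missed the adjusted p without any 1 of the 6 samples (adjusted p = 0.054 to 0.16, limma). The other subunits lay between them, with a log2 fold change of −0.76 for *ORC2*, −0.53 for *ORC4* and −0.27 for *ORC6*. The ratio of *ORC5* to *ORC3* within a sample went from 2.57, 2.46 and 2.51 with DMSO to 1.10, 1.04 and 1.13 with CDKI-73.

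All 4 genes of the licensing factors and their control fell by at least 2-fold with CPM as deposited, as did 22.3% of all tested genes. Their median log2 fold change was −1.48. All 4 were lower under all 5 scalings, but of these only *DTL* kept a 2-fold fall under each. With the upper quartile *CDC6* was at −0.99, *CDT1* at −0.97 and *GMNN* at −0.69. *CDC6* (chr17:40287879-40304657), the ATPase that helps load the helicase onto ORC, was at 112.2, 116.1 and 114.6 CPM with DMSO and 40.5, 42.8 and 38.6 CPM with CDKI-73 (log2 fold change −1.49 ± 0.051, adjusted p = 8.7e-08). *CDT1* (chr16:88803789-88809258), its partner in loading, was at 29.3, 27.8 and 27.2 CPM with DMSO and 10.4, 9.93 and 10.0 CPM with CDKI-73 (log2 fold change −1.47 ± 0.059, adjusted p = 1.6e-07). The groups of these partners were far apart, and the treated means were 35.5% and 36.0% of the DMSO means.

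*GMNN* (chr6:24774931-24786099) encodes geminin, the protein that binds CDT1 and blocks relicensing, and was at 90.4, 85.8 and 81.4 CPM with DMSO and 35.8, 35.7 and 41.8 CPM with CDKI-73 (log2 fold change −1.19 ± 0.073, adjusted p = 1.6e-06). The inhibitor and its target were thus both lower, with a ratio of *GMNN* to *CDT1* of 3.08, 3.09 and 2.997 with DMSO and 3.45, 3.60 and 4.17 with CDKI-73. *DTL* (chr1:212035553-212107400) encodes the substrate receptor of the ubiquitin ligase that removes CDT1 on replicating DNA. It was at 73.1, 76.0 and 74.6 CPM with DMSO and 15.0, 15.0 and 14.1 CPM with CDKI-73, 19.7% of the DMSO mean (log2 fold change −2.33 ± 0.051, adjusted p = 2.1e-08). Under TMM scaling *GMNN* and *ORC1* were just short of a 2-fold fall, at −0.99 and −0.98 on the log2 scale.

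**Figure D3:**
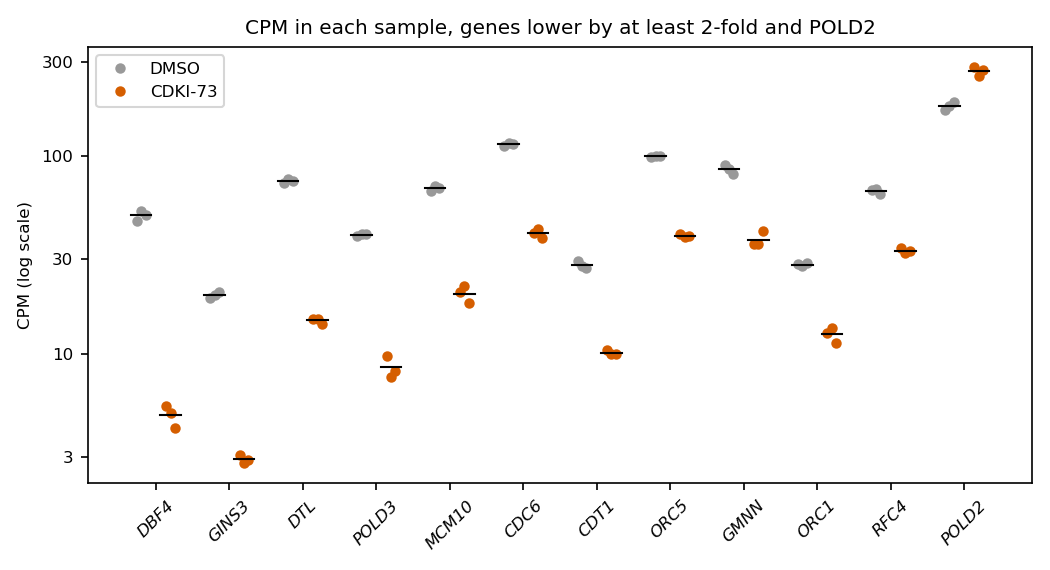
CPM in each of the 6 samples (log scale) for the 11 genes lower by at least 2-fold and for *POLD2*, with DMSO in grey, CDKI-73 in orange and a black line at each group mean. The groups do not overlap for any of the 12 genes, and *DBF4* goes from a mean of 50.0 to 4.89 CPM.

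The genes of the MCM ring differed little between groups by comparison. The 6 genes of MCM2 to MCM7 had log2 fold changes of −0.37 to −0.08. All 6 were higher under upper quartile scaling, as were 54.7% of all tested genes. *MCM3*, *MCM4*, *MCM6* and *MCM7* passed the adjusted p, while *MCM2* (−0.08, adjusted p = 0.11, limma) and *MCM5* (−0.09, adjusted p = 0.14, limma) did not. Every treated sample lay below every control for all 6, as it did for 50.0% of all tested genes. For *MCM5* the gap was narrow, from 57.79 CPM in CDKI-73 replicate 1 to 57.89 CPM in DMSO replicate 2. *MCM3* (chr6:52264014-52284881) fell most, at 142.3, 142.3 and 145.3 CPM with DMSO and 110.7, 112.2 and 109.0 CPM with CDKI-73 (log2 fold change −0.37 ± 0.039, adjusted p = 4.3e-05). *MCM7* (chr7:100092233-100101940) had the smallest fall among those past the adjusted p, at 168.8, 169.0 and 171.0 CPM with DMSO and 150.4, 151.1 and 154.7 CPM with CDKI-73 (log2 fold change −0.16 ± 0.038, adjusted p = 0.0059). *MCM6* (chr2:135839626-135876443), whose promoter is printed above, was at 137.2, 131.6 and 127.4 CPM with DMSO and 119.3, 119.97 and 115.4 CPM with CDKI-73, a fall of 1.12-fold (log2 fold change −0.16 ± 0.045, adjusted p = 0.012). *MCM4* had means of 246.3 and 217.0 CPM. *MCM8*, which acts in homologous recombination rather than in the ring, was at −0.27 (adjusted p = 0.020, limma), and at adjusted p = 0.069 and 0.064 without DMSO replicate 2 or 3, and it overlaps a coding gene with no symbol on the same strand.

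The kinase that activates the helicase was affected very unequally in its subunits. *DBF4* (chr7:87876216-87909553), the regulatory subunit that activates the kinase, fell most of all 52 genes. It was at 47.0, 52.7 and 50.2 CPM with DMSO and 5.46, 4.99 and 4.23 CPM with CDKI-73, 9.79% of the DMSO mean (log2 fold change −3.33 ± 0.098, adjusted p = 5e-08), and only 1.57% of tested genes fell further. *CDC7* (chr1:91500851-91525764), the catalytic subunit, was at 58.2, 65.5 and 64.2 CPM with DMSO and 41.4, 41.7 and 36.6 CPM with CDKI-73 (log2 fold change −0.65 ± 0.071, adjusted p = 5.4e-05). Within a sample, the ratio of *DBF4* to *CDC7* was 0.807, 0.805 and 0.782 with DMSO and 0.132, 0.120 and 0.116 with CDKI-73. *DBF4B*, another activator of CDC7, had a mean of 7.26 CPM with DMSO and 5.53 CPM with CDKI-73 (log2 fold change −0.39, adjusted p = 0.0024, limma). Under upper quartile scaling *CDC7* did not pass (−0.15, adjusted p = 0.062, limma). GENCODE names 3 pseudogenes after *DBF4*, and how reads shared with them were counted was not tested.

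Of CDC45, GINS and MCM10, 4 of 6 genes were lower and 2 passed the 2-fold threshold (all tested genes, 48.2% and 22.3%). *GINS2*, *GINS4* and *CDC45* were higher under upper quartile scaling. *GINS3* (chr16:58295080-58406147) encodes 1 of the 4 GINS subunits, which join MCM and CDC45 in the active helicase. It was at 19.0, 19.8 and 20.5 CPM with DMSO and 3.08, 2.79 and 2.91 CPM with CDKI-73, 14.8% of the DMSO mean (log2 fold change −2.72 ± 0.074, adjusted p = 4.2e-08). These treated levels were the lowest of the 52 genes, per kb of transcript as well, and at the inferred depth the lowest of them was 134 reads, in CDKI-73 replicate 3. *GINS2* was at 31.6, 31.8 and 31.5 CPM with DMSO and 28.1, 27.1 and 29.95 CPM with CDKI-73 (log2 fold change −0.16 ± 0.054, adjusted p = 0.03), and it missed the adjusted p when any sample but CDKI-73 replicate 3 was left out (adjusted p = 0.070 to 0.097, limma). *GINS1* fell by 0.66 on the log2 scale, and *GINS4* was at −0.11 (adjusted p = 0.075, limma), which became −0.14 (adjusted p = 0.020) without CDKI-73 replicate 3.

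The 4 subunits of GINS form a complex of equal parts, and their RNAs were not lowered alike. The ratio of *GINS3* to *GINS4* was 0.477, 0.501 and 0.512 with DMSO and 0.0881, 0.0750 and 0.0761 with CDKI-73. *MCM10* (chr10:13161558-13211110), a factor that helps start unwinding, was at 66.4, 70.2 and 68.9 CPM with DMSO and 20.5, 21.9 and 18.0 CPM with CDKI-73 (log2 fold change −1.77 ± 0.075, adjusted p = 2.1e-07). *CDC45*, the remaining helicase component, had means of 36.1 and 35.5 CPM with overlapping groups (log2 fold change −0.02, adjusted p = 0.67, limma).

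Polymerase alpha-primase makes the RNA-DNA primers. Both primase genes and the accessory subunit *POLA2* were lower, none by 2-fold, and of these 3 only *PRIM1* was lower under all 5 scalings. *PRIM1* (chr12:56730438-56752374), the catalytic primase, was at 38.8, 40.5 and 40.7 CPM with DMSO and 20.5, 21.2 and 19.6 CPM with CDKI-73, just short of a 2-fold fall (log2 fold change −0.97 ± 0.054, adjusted p = 8.9e-07). *PRIM2* (chr6:57314805-57646850), its large subunit, was at 41.2, 42.1 and 40.0 CPM with DMSO and 28.6, 27.9 and 27.3 CPM with CDKI-73 (log2 fold change −0.56 ± 0.049, adjusted p = 1.5e-05). *POLA2* fell by 0.57 on the log2 scale. *POLA1*, the polymerase subunit, had means of 42.1 and 46.4 CPM (log2 fold change 0.14, adjusted p = 0.12, limma), and without CDKI-73 replicate 3 it was higher (0.21, adjusted p = 0.0056, limma). *PRIM1* overlaps *NACA* on the same strand in GENCODE, and *POLA2* overlaps a coding gene with no symbol, so their levels are uncertain to that extent.

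Polymerase delta, the main polymerase of the lagging strand, showed the widest split among the 11 complexes compared. *POLD3* (chr11:74493851-74669117), an accessory subunit that binds PCNA, was at 39.3, 40.2 and 40.2 CPM with DMSO and 9.70, 7.65 and 8.18 CPM with CDKI-73, 21.3% of the DMSO mean (log2 fold change −2.22 ± 0.088, adjusted p = 1.5e-07). *POLD2* (chr7:44114631-44124358), the subunit that links POLD3 to the catalytic subunit, moved the other way, at 170.7, 178.8 and 188.1 CPM with DMSO and 282.4, 254.4 and 271.2 CPM with CDKI-73 (log2 fold change 0.59 ± 0.056, adjusted p = 2.4e-05). It was the largest rise among the 52 genes, and 96.2% of tested genes had a lower fold change. The catalytic subunit *POLD1* was at 22.3, 19.99 and 21.8 CPM with DMSO and 25.6, 28.0 and 31.6 CPM with CDKI-73 (log2 fold change 0.40 ± 0.086, adjusted p = 0.0029), with a log2 fold change of −0.00 under reference gene scaling. *POLD1* overlaps another coding gene on the same strand. The smallest subunit, *POLD4*, which is not among the 52, was also higher, at 0.38 (adjusted p = 0.014, limma), and at −0.02 with the reference genes.

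The ratio of *POLD3* to *POLD2* fell from 0.230, 0.225 and 0.214 with DMSO to 0.0343, 0.0301 and 0.0302 with CDKI-73, a change of 7.08-fold that does not depend on scaling. In polymerase epsilon, the main polymerase of the leading strand, the subunits also differed. *POLE* did not pass (log2 fold change −0.00, adjusted p = 0.96, limma), *POLE2* was at −0.50 and *POLE3* at −0.27, and *POLE3* was higher under upper quartile scaling. The small subunit *POLE4*, which is not among the 52, was higher, at 0.40 (adjusted p = 0.026, limma) and −0.01 with the reference genes.

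**Figure D4:**
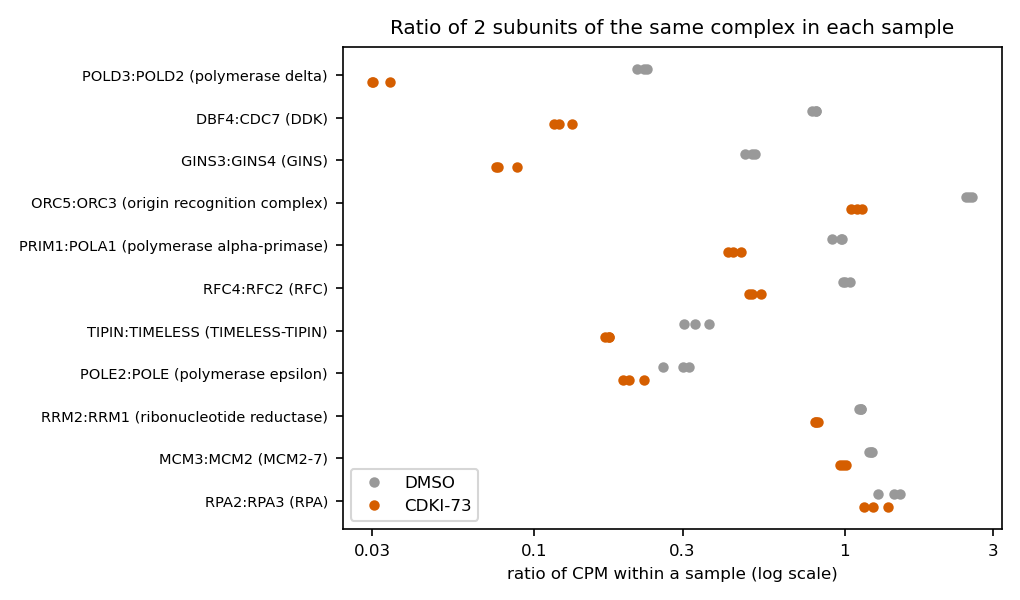
Ratio of CPM of 2 subunits of a complex within each sample (log scale), for the subunit with the lowest and the one with the highest fold change, so that the pairs were chosen by the values shown. DMSO is grey and CDKI-73 orange. *POLD3* to *POLD2*, *DBF4* to *CDC7* and *GINS3* to *GINS4* move by 7.08-fold, 6.53-fold and 6.24-fold, *MCM3* to *MCM2* by 1.23-fold, and the 2 groups overlap only for *RPA2* to *RPA3*.

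Among other paired subunits the ratio moved less. That of *PRIM1* to *POLA1* went from a mean of 0.952 to 0.441, *RFC4* to *RFC2* from 1.01 to 0.510, *TIPIN* to *TIMELESS* from 0.333 to 0.172 and *RRM2* to *RRM1* from 1.12 to 0.809. These ratios are free of the scaling of a sample, but each pair was picked for its contrast and the ratio of 2 CPM also carries the lengths of the transcripts, so they are given without a test and only the change between groups is read.

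The clamp PCNA and its loader, replication factor C (RFC), were lower in 5 of 6 genes, against 48.2% of all tested genes. Of these, *RFC5* was higher under upper quartile scaling. *RFC4* (chr3:186789880-186807058), a small subunit of the loader, was at 67.1, 68.2 and 64.1 CPM with DMSO and 34.1, 32.3 and 33.1 CPM with CDKI-73 (log2 fold change −1.0 ± 0.049, adjusted p = 4.3e-07). This was a 2.001-fold fall, at the threshold itself. It was under 2-fold without CDKI-73 replicate 2 or 3 or DMSO replicate 1 or 2 (log2 fold change −1.0 to −0.98). It was also under 2-fold with TMM, the median of ratios and the upper quartile, at −0.80, −0.82 and −0.50. *RFC5* (chr12:118013588-118033130), another small subunit, was at 65.8, 63.1 and 62.4 CPM with DMSO and 48.2, 49.97 and 51.8 CPM with CDKI-73 (log2 fold change −0.35 ± 0.049, adjusted p = 0.00025). *RFC1*, the large subunit, fell by 0.69 and *RFC3* by 0.40 on the log2 scale. *RFC2* had means of 65.9 and 65.0 CPM (adjusted p = 0.74, limma).

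*PCNA* was the most abundant of the 52 genes with DMSO, both by CPM and per kb of transcript. Its mean went from 324.3 ± 5.85 to 230.0 ± 8.40 CPM (SD, n = 3; log2 fold change −0.50, adjusted p = 1.4e-05, limma), and under upper quartile scaling the log2 fold change was 0.00. GENCODE names 3 pseudogenes after *PCNA*. In all, 12 of the 52 genes have a pseudogene named after them, among them *RRM2*, *RPA2*, *RPA3* and *TYMS*. How reads shared with these were counted was not tested.

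RPA, which coats single-stranded DNA, was not lower in any of its 3 genes with CPM as deposited. All 3 were lower under reference gene scaling, as were 73.9% of all tested genes. They were all higher with TMM, the median of ratios and the upper quartile (all tested genes, 38.0%, 36.6% and 54.7%). *RPA1* (chr17:1829702-1900082), the large subunit, was at 177.3, 168.2 and 166.2 CPM with DMSO and 186.8, 189.8 and 189.1 CPM with CDKI-73 (log2 fold change 0.14 ± 0.042, adjusted p = 0.014), and at adjusted p = 0.065 and 0.056 without DMSO replicate 2 or 3. *RPA2* (0.02, adjusted p = 0.70, limma) and *RPA3* (0.19, adjusted p = 0.11, limma) did not pass, and *RPA3* had the largest spread of the 52 genes among DMSO samples, a coefficient of variation of 9.68%. It was higher without CDKI-73 replicate 1 or DMSO replicate 1 (adjusted p = 0.039 and 0.046, limma).

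The enzymes that finish Okazaki fragments moved in opposite directions with CPM as deposited, though not with reference gene scaling. *FEN1* (chr11:61792911-61797238), the nuclease that trims the flap, was at 114.5, 114.1 and 115.1 CPM with DMSO and 70.3, 73.2 and 68.5 CPM with CDKI-73 (log2 fold change −0.70 ± 0.043, adjusted p = 1.7e-06). *LIG1* (chr19:48115445-48170603), the ligase that seals the nick, was at 22.4, 22.1 and 22.2 CPM with DMSO and 27.4, 28.0 and 27.6 CPM with CDKI-73 (log2 fold change 0.31 ± 0.049, adjusted p = 0.00048), but it did not pass under reference gene scaling (−0.09, adjusted p = 0.22, limma). Neither gene had overlapping groups. *FEN1* overlaps *FADS2* on the same strand in GENCODE.

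Of the genes that supply deoxynucleotides, only the small subunit of ribonucleotide reductase was lower with CPM as deposited. All 4 were lower under reference gene scaling, as were 73.9% of all tested genes. *RRM1*, *TYMS* and *TK1* were higher with TMM, the median of ratios and the upper quartile. *RRM2* (chr2:10120698-10211725), whose protein is made in S phase, was at 294.3, 309.1 and 301.1 CPM with DMSO and 229.6, 230.9 and 227.0 CPM with CDKI-73 (log2 fold change −0.40 ± 0.039, adjusted p = 3.2e-05), and higher by 0.10 under upper quartile scaling. Its partner *RRM1* was at 269.0 and 283.3 CPM on average (log2 fold change 0.07, adjusted p = 0.14, limma). *TYMS* (chr18:657653-673578), thymidylate synthase, was at 169.4, 170.2 and 161.7 CPM with DMSO and 180.3, 178.5 and 192.0 CPM with CDKI-73 (log2 fold change 0.13 ± 0.047, adjusted p = 0.029). It missed the adjusted p without CDKI-73 replicate 1 or any DMSO replicate (adjusted p = 0.053 to 0.10, limma) and was lower under reference gene scaling. *TK1*, the salvage kinase for thymidine, was at 0.17 (adjusted p = 0.067, limma) with every treated sample above the controls.

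The fork protection partners, which travel with the helicase as a dimer, also moved in opposite directions, except under reference gene scaling. *TIPIN* (chr15:66336191-66386746) was at 31.1, 35.5 and 31.2 CPM with DMSO and 19.8, 19.2 and 18.6 CPM with CDKI-73 (log2 fold change −0.76 ± 0.067, adjusted p = 1.5e-05). *TIMELESS* (chr12:56416363-56449426) was at 94.9, 97.0 and 103.0 CPM with DMSO and 113.6, 114.1 and 107.2 CPM with CDKI-73 (log2 fold change 0.18 ± 0.050, adjusted p = 0.01), and it was lower under reference gene scaling (−0.22, adjusted p = 0.021, limma).

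As levels, the 52 genes were well expressed in LNCaP cells. Their summed CPM was 4713, 4759 and 4722 with DMSO and 3831, 3845 and 3843 with CDKI-73. Per kb of the canonical transcript, the level with DMSO ranged from 5.88 CPM per kb for *POLE* to 254.2 for *PCNA*, with a median of 22.8. With CDKI-73 it ranged from 1.33 for *GINS3* to 180.3 for *PCNA*, with a median of 16.7, and *DBF4* had come down from 13.7 to 1.34 CPM per kb. Replicates were close, with a median coefficient of variation of 2.80% with DMSO and 3.62% with CDKI-73, and the widest was *DBF4* with CDKI-73 at 12.7%.

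The size of the change was set beside gene features as a description. Over the 52 genes, the Spearman correlation of the log2 fold change was −0.10 with the genomic span, −0.02 with the transcript length, 0.22 with the number of exons and 0.14 with the CPM under DMSO. Over the 11593 tested genes with an annotation, the first 3 were −0.07, −0.27 and 0.15, and over all 13373 the last was 0.03. All these points share the same 6 libraries, and the last correlation shares the DMSO values with the fold change. The 11 genes at least 2-fold lower had a median span of 33340 bases, against 33820 bases for the other 41.

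By level, 0 of the 12 genes at 120 CPM or more with DMSO fell by at least 2-fold, where 8.33% of all tested genes at that level did. Between 60 and 120 CPM, 6 of 19 did, against 18.7%. Between 30 and 60 CPM, 2 of 15 did, against 27.0%, and between 10 and 30 CPM, 3 of 6 did, against 31.7%. No replication gene was below 10 CPM with DMSO.

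**Figure D5:**
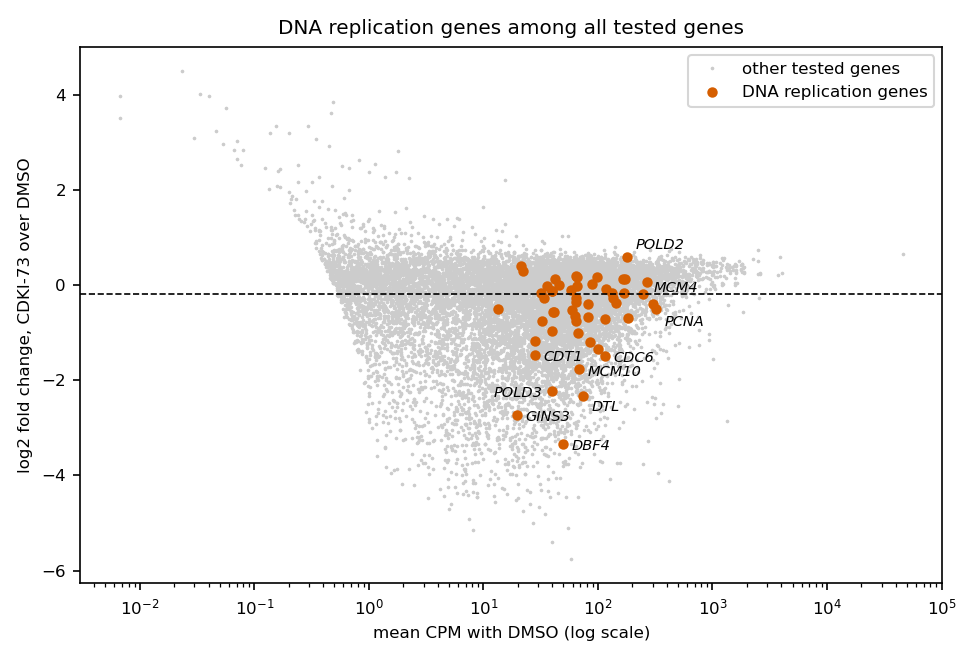
Log2 fold change (CDKI-73 over DMSO) against the mean CPM with DMSO (log scale) for all 13373 tested genes, with the 52 replication genes in orange. A dashed line marks the all-gene median (−0.18). The replication genes lie between −3.33 (*DBF4*) and 0.59 (*POLD2*), and the 12 at 120 CPM or more are all above a 2-fold fall.

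Another 53 genes of replication that are not among the 52, such as origin firing factors, topoisomerases, histone chaperones and checkpoint proteins, were counted in the same way. Of these, 31 (58.5%) were lower, against 48.2% of all tested genes, 8 (15.1%) higher, against 24.2%, and 14 not past the adjusted p. At least 2-fold lower were 13 (24.5%), close to the 22.3% of all tested genes, and the median log2 fold change was −0.35. With the upper quartile, 20 were lower and 27 higher (all tested genes, 29.5% and 54.7%). Of 27 origin firing and fork accessory genes, 16 were lower and 3 higher (all tested genes, 48.2% and 24.2%). *FBXO5*, an inhibitor of the ubiquitin ligase APC/C that also guards against relicensing, was at 44.2, 43.8 and 45.1 CPM with DMSO and 2.75, 2.93 and 1.06 CPM with CDKI-73 (log2 fold change −4.37 ± 0.32, adjusted p = 4.9e-06). *TICRR*, the factor that brings CDC45 to the helicase, was at −2.31, and *RIF1*, which counteracts DDK at origins, at −1.99 on the log2 scale. CDKI-73 replicate 3 was lowest of the 3 for each of these genes, and its *FBXO5* value was about 49 reads at the inferred depth.

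All 8 checkpoint genes were lower, against 48.2% of all tested genes, although the list includes small changes such as −0.14 for *HUS1*. Under upper quartile scaling *ATR* (0.22) and *HUS1* (0.35) were higher, and *CHEK1* did not pass. *ETAA1*, an activator of the checkpoint kinase ATR at stalled forks, was at 29.8, 32.6 and 31.9 CPM with DMSO and 2.10, 1.68 and 1.24 CPM with CDKI-73 (log2 fold change −4.18 ± 0.16, adjusted p = 1.4e-07). *ATRIP*, the partner of ATR, was at −1.76 and *RAD9A*, a subunit of the checkpoint clamp, at −1.13. Of 10 genes of chromatin assembly behind the fork, 7 were lower and 1 higher (all tested genes, 48.2% and 24.2%). The largest falls were in *UHRF1*, which reads hemimethylated DNA (−1.38), *CHAF1A*, a subunit of the histone chaperone CAF-1 (−1.18), and the histone chaperone *ASF1A* (−1.11). With the upper quartile *NASP* was higher (0.17) and *CHAF1B* did not pass. Of 8 other genes of nucleotide supply, 0 were lower and 4 higher, beside the same shares of all tested genes. Among the 4 were the deoxynucleotide hydrolase *SAMHD1* (0.33), the nucleoside diphosphate kinase *NME1* (0.32) and the kinase *CMPK1* (0.30). With reference gene scaling, 0 of the 53 genes were higher, against 2.95% of all tested genes.

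The counted reads, inferred from the steps of the CPM values, were 46.1 to 60.9 M per sample, and 1 read was worth 0.0164 to 0.0217 CPM. CDKI-73 replicate 3, the shallowest, was the least like its group, with a median absolute log2 difference of 0.148 and 0.159, against 0.065 between CDKI-73 replicates 1 and 2 and 0.061 to 0.093 among DMSO replicates. Without it, 35 of the 52 genes were lower and 10 at least 2-fold lower. All 10 luminal prostate and LNCaP markers were present, with summed levels of 7800 to 8194 CPM with DMSO and 6605 to 6828 CPM with CDKI-73. Summed markers of other cell types were low in both groups: 16.5 to 18.0 and 22.4 to 25.0 CPM for 8 stromal genes (*COL1A2* at 0), 4.96 to 5.77 and 6.51 to 7.54 for 7 immune genes (*CD3E* and *MS4A1* at 0), 10.0 to 10.1 and 10.0 to 11.9 for 4 endothelial genes, and 0.51 to 1.10 and 1.10 to 1.31 for 3 basal genes.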

How the data were processed

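RNA-seq of 3 CDKI-73 and 3 DMSO samples of LNCaP cells was analysed from the deposited table of CPM, given with 2 decimals for each gene, for which the authors aligned reads to hg38 using STAR and counted them by gene. The submitters' processing notes also name FastQC, edgeR (version 3.3) and R (version 3.2.3), and the study tested TMM normalized counts. The annotation used for counting is not given in the sources used here. Groups follow the treatment label, since the titles of the DMSO samples also carry the compound's name. Every direction rests on that label and on the column names of the deposited values, which give the same groups.

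As CPM are not counts, log2(CPM + 0.1) of the 13373 genes with a mean of at least 0.5 CPM over the 6 samples was fitted with limma 3.58.1 (lmFit, eBayes with trend) in R 4.3.3, with Benjamini-Hochberg adjustment. The threshold for a lower or higher gene was an adjusted p of 0.05, and fold changes on this scale understate those of genes with low CPM. Total reads were inferred from the step between CPM values: 99.9% to 100.0% of the values fitted a whole number of reads within rounding, against 46.1% to 60.9% by chance. Samples of equal number did not deviate together (correlations of −0.29, 0.11 and −0.23), so no pairing was used.

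The 52 genes, the 53 other replication genes and the settings were chosen with earlier results of these data known. Values in every sample are given for each gene at least 2-fold lower and for the gene with the lowest and the highest fold change in each role among those past the adjusted p. Up to 3 genes with the largest change are named from each list of other genes. Values given beyond this were picked after they were seen. They are those in every sample for *POLD1* and *MCM6*, and those for *HUS1*, *DBF4B*, *POLD4* and *POLE4*. The scaling results of *ATR*, *CHEK1*, *NASP* and *CHAF1B* were picked in the same way. Alternatives were pseudocounts of 0.01 and 1 CPM, no filter or a mean of at least 2 CPM, 4 scalings, limma without trend or robust, the replicate number as a block and each sample left out. Voom on the inferred reads was added after the data were seen. The limma script was tested on simulated data. Plots were drawn with matplotlib 3.10.9 in Python 3.11.15.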

Additional observations from a re-analysis of the deposited data

How the results depend on the processing

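Scaling mattered most. With TMM, median-of-ratios, upper quartile and reference gene scaling, the number of higher genes among the 52 went from 6 to 15, 14, 28 and 1, and the median log2 fold change from −0.36 to −0.17, −0.19, 0.13 and −0.77. The number lower was 17 with the upper quartile. At least 2-fold lower were 5 with the upper quartile and 18 with the reference genes, and 1 gene (*POLD2*) was at least 2-fold higher with the upper quartile. Of all genes, 3949 were lower with the upper quartile and 9882 with the reference genes, against 6441, and 5082, 4901, 7311 and 395 were higher in the same order of 4 scalings, against 3242. Of the other replication genes 20 were lower with the upper quartile, against 31, and 19, 16, 27 and 0 were higher, against 8. Voom with TMM gave 15 higher genes of the 52, 5103 of all genes and 19 of the others, and a median of −0.17. The sign changed for 11, 10, 19 and 10 of the 52 genes under these scalings (11 with voom). Among the genes given in every sample these were *ORC3* (0.06, 0.04 and 0.36 with TMM, median of ratios and upper quartile, 0.06 with voom), *MCM6*, *MCM7* and *GINS2* (each 0.04, 0.02, 0.34 and 0.04), *MCM3* (0.12), *RFC5* (0.14) and *RRM2* (0.10) with the upper quartile, and *RPA1* (−0.26), *LIG1* (−0.09), *TYMS* (−0.27), *TIMELESS* (−0.22) and *POLD1* (−0.00) with the reference genes. These shifts follow from the scaling itself, which adds nearly the same amount to every gene.

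With the replicate block, which the data gave no ground to pair, 33 of the 52 genes were lower, 11 at least 2-fold lower, and 5 of the other genes higher; *ORC3*, *GINS2*, *RPA1* and *TYMS* no longer passed. Leaving out each sample in turn gave 32 to 35 lower and 4 to 7 higher genes of the 52, 10 to 11 at least 2-fold lower, and 4 to 10 higher among the other genes (4 without DMSO replicate 2, 5 without DMSO replicate 3). The pseudocounts, filters and variance models left 34 or 35 lower and 10 or 11 at least 2-fold lower. At the inferred depth the lowest value of the 52 genes was about 134 reads, and that of the other replication genes about 49.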
